A study of Mus musculus with 6 samples.

Results

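The TNF superfamily was examined in pre-B cells of the mouse that BCR-ABL1 had transformed. BCR-ABL1 is the kinase made by the translocation of Philadelphia chromosome-positive acute lymphoblastic leukaemia. Members were chosen by name: every measured gene whose symbol begins with Tnfsf or Tnfrsf, except 1 that was set aside, together with Tnf, Lta, Ltb, Ltbr, Fasl, Cd40, Cd40lg, Cd27, Cd70, Edar and Ngfr. This gave 39 of the 19938 genes tested, 15 ligands and 24 receptors, each read by a single probe set of an Affymetrix array. A probe set that the annotation shares between several genes was not used.

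The CRE-ERT2 group held 3 arrays from cells transduced with PMIP-CRE-ERT2, which encodes a Cre recombinase that is active only when tamoxifen is bound. The ERT2 group held 3 arrays from cells transduced with PMIP-ERT2, the hormone-binding domain without Cre. Cells of both groups were of strain 129P2/OlaHsd, carried Ptpn6 +/fl, had been selected for puromycin resistance, and were given 4OH-Tamoxifen at 0.5 micromolar for 2 days. Each cell therefore had an unfloxed Ptpn6 allele whatever Cre did, neither group lacked tamoxifen, and no Cre vector was given to cells without a floxed allele. Nothing in the labels says that the arrays of a group came from separate cultures, so each p-value rests on the variation among 3 arrays per group, and that variation may be technical only.

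Values are log2 expression from bulk RNA, in which fewer cells expressing a gene and less RNA per cell cannot be told apart, and every difference is CRE-ERT2 minus ERT2. Ptpn6, which encodes the phosphatase SHP-1, read 11.36, 11.25 and 11.20 on the CRE-ERT2 arrays, against 11.25, 11.39 and 11.39 on the ERT2 arrays. These ranges overlap, the difference was -0.07 (95% confidence interval -0.24 to 0.10), and a two-sided exact permutation test gave p = 0.3, where 0.1 is the lowest that 3 against 3 allows. The part of Ptpn6 that its probe set reads is not known here, so this value does not check the labels. Of 14 pre-B cell markers, 13 were measured, and their mean level was 12.44 to 12.50 on the CRE-ERT2 arrays, against 12.41 to 12.49 on the ERT2 arrays. Dntt (0.48) was higher, and Rag2 (-0.53) and Il7r (-0.43) were lower. Thus 1 of the 13 was higher and 2 were lower, against 2.3% and 2.28% of all genes. These shares are above the background, but they rest on few calls, and the mean levels of the list overlapped between the groups. Whether the list as a whole shifted was not tested. No marker of T, NK, myeloid, erythroid or stromal cells passed the test, out of 30 measured. With 4.58% of all genes called in either direction, few calls would fall among 30 genes. Flt3 (0.53) in the dendritic list was higher and Sdc1 (-0.44) in the plasma and mature B cell list was lower. The mean level of the dendritic list was 7.54 to 7.58 on the CRE-ERT2 arrays, against 7.36 to 7.56 on the ERT2 arrays, and that of the plasma and mature B cell list 7.12 to 7.21, against 7.26 to 7.40. The part of these shifts in the results was not tested.

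Ligands of the TNF superfamily are mostly trimers, held in the membrane or shed from it, that cluster receptors on the same or another cell. Many receptors recruit TRAF adaptors and switch on NF-kB, some carry a death domain that can lead to apoptosis, and a few lack a signalling tail and act as decoys. In the B lineage these pathways are known for survival signals, for help from T cells and, through lymphotoxin, for the organisation of lymphoid tissue.

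In the CRE-ERT2 arrays 7 members were higher and 0 lower, while 32 did not pass limma's test at an adjusted p under 0.05. The 7 are 17.9% of the family, against a background of 2.3% of all genes called higher. The family was chosen with earlier results of these data known, so this contrast is a description and not an independent test. The background was 2.28% for lower calls and 4.58% for calls in either direction. The ligand genes Ltb, Lta, Tnf, Tnfsf8 and Tnfsf4 rose, as did the receptor genes Tnfrsf13c and Tnfrsf18. All 7 changes were under 2-fold. With Tnfrsf22, 8 members differed by more than 0.3 in size, against 5.32% of all genes. At an unadjusted p under 0.05 there were 12 members, against 16.4% of all genes. The groups did not overlap in 11 members with CRE-ERT2 higher (28.2%, background 6.92%) and in 4 with CRE-ERT2 lower (10.3%, background 15.5%), against 22.5% of all genes in either direction. The median difference was 0.02 over the 39 members, against -0.03 over all genes tested, and 21 members had a positive and 18 a negative difference. When each array was left out in turn the number of members called in either direction was 4 to 7. The lowest came without CRE-ERT2 replicate 1. Without ERT2 replicate 1, 5 members were higher and 1, Tnfrsf22, was lower.

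**Figure D1:**
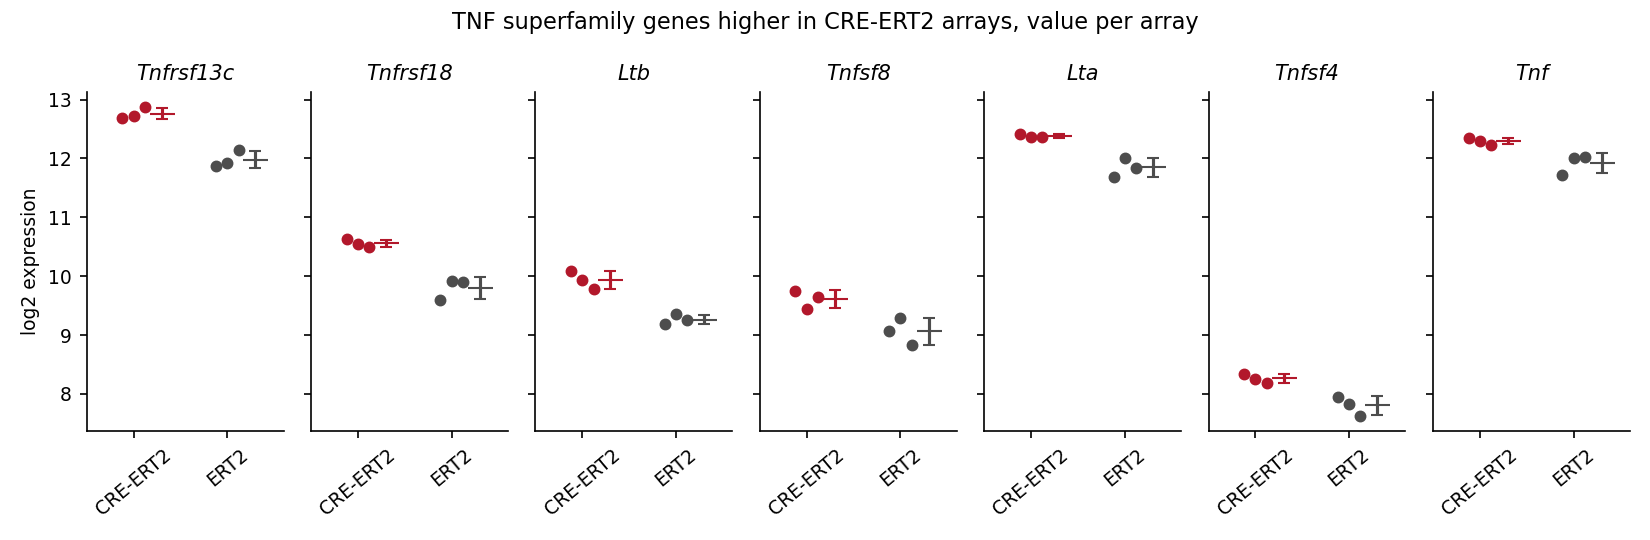
Log2 expression of the 7 members that passed, with a point for each array and the mean and SD of 3 arrays beside them (CRE-ERT2 in red, ERT2 in grey). In every panel the 3 CRE-ERT2 points lie above the 3 ERT2 points, with differences between 0.37 (Tnf) and 0.78 (Tnfrsf13c).

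**Figure D2:**
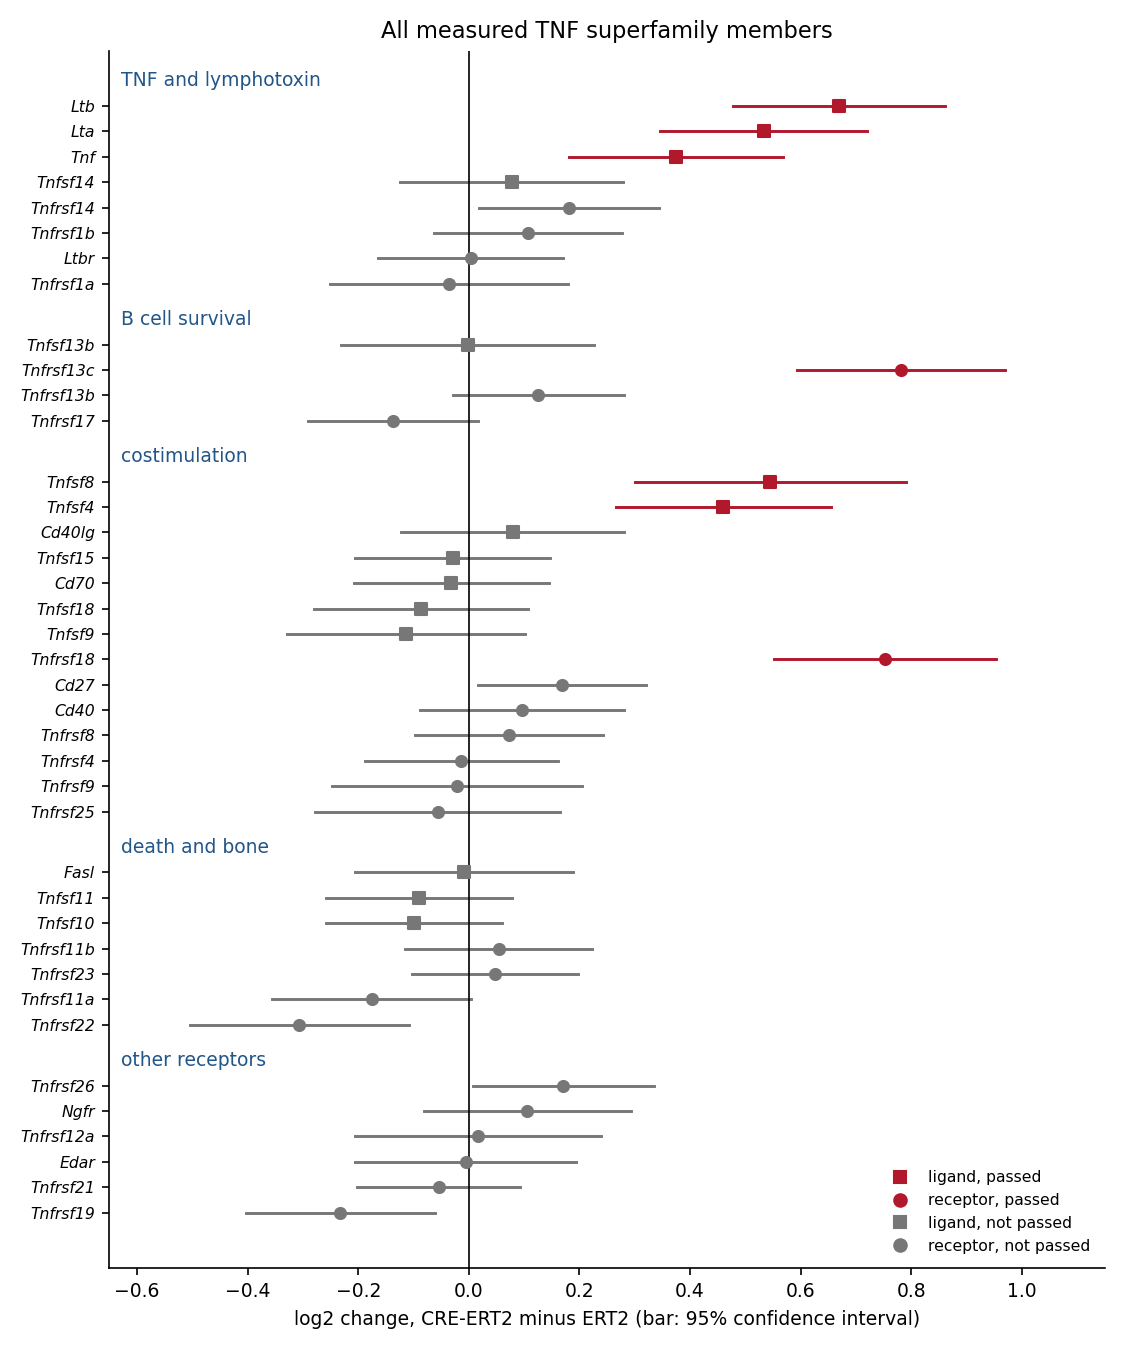
Difference in log2 expression, CRE-ERT2 minus ERT2, for all 39 members with its 95% confidence interval, grouped by role (squares are ligands, circles receptors, red passed the test). The 7 members that passed lie to the right of 0, and the other 32 lie between -0.31 and 0.18.

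TNF and the lymphotoxins came first among the ligands: 3 of the 4 ligand genes of this group rose and 0 of its 4 receptor genes passed. Over all genes 2.3% were called higher and 4.58% in either direction, so 0 of 4 receptor genes is no contrast with other genes. A difference between ligand and receptor genes was not tested. Ltb, which encodes the membrane-anchored subunit of the lymphotoxin heterotrimer, read 10.08, 9.94 and 9.78 on the CRE-ERT2 arrays, against 9.18, 9.35 and 9.26 on the ERT2 arrays. The lowest CRE-ERT2 value stood well above the highest ERT2 value. The difference was 0.67 ± 0.09 (standard error), or 1.59-fold with an interval of 1.39 to 1.82 (limma adjusted p = 0.000589).

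Lta encodes lymphotoxin alpha, which is secreted as a homotrimer that binds the TNF receptors or joins Ltb at the cell surface. It read 12.42, 12.37 and 12.36 on the CRE-ERT2 arrays, against 11.69, 12.01 and 11.84 on the ERT2 arrays. The CRE-ERT2 values were close together and the ERT2 values more spread out, without overlap. Lta was 1.45-fold higher (1.27 to 1.65, limma adjusted p = 0.00285).

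Tnf, the founding cytokine of the family, rose least of the 7. Its values were 12.35, 12.30 and 12.23 on the CRE-ERT2 arrays, against 11.73, 12.01 and 12.02 on the ERT2 arrays. ERT2 replicate 1 was the lowest array for both Tnf and Lta, and also for Ltb, Tnfrsf13c and Tnfrsf18. CRE-ERT2 replicate 1 was the highest array for each of the 7 except Tnfrsf13c. Tnf was 1.30-fold higher (1.13 to 1.48, limma adjusted p = 0.0311). Its call was lost without ERT2 replicate 1 (difference 0.28, limma adjusted p = 0.098) and without CRE-ERT2 replicate 1 (0.108), 2 (0.0863) or 3 (0.0936).

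Ltb, Tnf and Lta stand next to each other on mouse chromosome 17, and they are the one run of neighbouring family genes in which every member passed. The 250 bases before the RefSeq start of each are shown because these genes moved together (build GRCm38.p6, 5′ to 3′ on the strand of the gene). Capitals mark the matches to the motifs searched: the NF-kB consensus by name, AP-1 (TGANTCA), ETS (CCGGAAG) and the TATA box (TATAAA), on both strands.
Ltb (chr17:35194257-35194506, plus strand): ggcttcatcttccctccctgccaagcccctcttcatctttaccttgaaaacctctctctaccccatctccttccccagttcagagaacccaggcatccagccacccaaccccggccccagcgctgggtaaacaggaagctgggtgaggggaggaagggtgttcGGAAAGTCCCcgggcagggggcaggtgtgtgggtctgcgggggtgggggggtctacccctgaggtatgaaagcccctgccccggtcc
Tnf (chr17:35202008-35202257, minus strand): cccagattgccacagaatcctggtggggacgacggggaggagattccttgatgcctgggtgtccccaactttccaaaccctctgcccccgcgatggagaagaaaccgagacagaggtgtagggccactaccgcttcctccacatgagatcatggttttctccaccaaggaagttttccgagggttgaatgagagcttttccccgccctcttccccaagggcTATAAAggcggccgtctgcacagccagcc
Lta (chr17:35205352-35205601, minus strand): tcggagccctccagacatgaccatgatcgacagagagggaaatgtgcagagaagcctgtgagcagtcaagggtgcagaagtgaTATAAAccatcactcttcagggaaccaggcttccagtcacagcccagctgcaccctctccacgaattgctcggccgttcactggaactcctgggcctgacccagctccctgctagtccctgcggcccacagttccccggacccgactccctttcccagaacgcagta

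In the Ltb window the NF-kB consensus matched once, on the opposite strand (GGGACTTTCC), 87 to 78 bases before the start. In the Tnf window a TATA box matched 29 to 24 bases before the start, and in the Lta window 167 to 162 bases before it. No AP-1 or ETS match fell in these windows. Of 32817 RefSeq promoter windows of this length, 7.25% held the NF-kB consensus, 6.75% AP-1, 6.90% ETS and 12.4% a TATA box. RefSeq windows were found for 31 of the 39 members (35 windows), of which 4 held the NF-kB consensus, those of Ltb, Tnfrsf8, Tnfrsf9 and Tnfrsf25. The last 3 of these genes did not pass, and of the 6 higher members with a window only Ltb held it. These are matches of letters and show no binding.

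The other ligand of this group, Tnfsf14 (LIGHT), read 6.77, 6.94 and 6.74 on the CRE-ERT2 arrays, against 6.82, 6.55 and 6.85 on the ERT2 arrays, with overlapping ranges. Among the receptors, Ltbr binds the lymphotoxin heterotrimer. It read 8.44, 8.51 and 8.58 on the CRE-ERT2 arrays, against 8.61, 8.42 and 8.49 on the ERT2 arrays, and the interval of its difference ran from -0.16 to 0.17.

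Tnfrsf1a, the death-domain receptor for TNF, read 6.87, 6.99 and 7.00 on the CRE-ERT2 arrays, against 7.04, 6.76 and 7.17 on the ERT2 arrays. Tnfrsf1b, the second TNF receptor, read 10.82, 10.77 and 10.61 on the CRE-ERT2 arrays, against 10.57, 10.64 and 10.68 on the ERT2 arrays. Both pairs of ranges overlap, with differences of -0.04 (-0.25 to 0.18) and 0.11 (-0.06 to 0.28). Tnfrsf14 (HVEM), which binds LIGHT and lymphotoxin alpha, read 10.39, 10.28 and 10.20 on the CRE-ERT2 arrays, against 10.07, 10.13 and 10.12 on the ERT2 arrays. Its ranges did not overlap, but the difference of 0.18 (0.02 to 0.34) did not pass (limma adjusted p = 0.241).

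In the BAFF system, which keeps maturing B cells alive, 1 of 4 measured genes passed, against 4.58% of all genes called in either direction. Tnfrsf13c, which encodes the BAFF receptor, showed the greatest rise in the family. It read 12.69, 12.73 and 12.87 on the CRE-ERT2 arrays, against 11.88, 11.92 and 12.14 on the ERT2 arrays. Every CRE-ERT2 value was above every ERT2 value. Tnfrsf13c was 1.72-fold higher (1.51 to 1.96, limma adjusted p = 0.000141), and it passed in each of 14 alternative settings with differences of 0.73 to 0.86.

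Tnfsf13b encodes BAFF itself, the ligand of that receptor. It read 7.37, 7.47 and 7.49 on the CRE-ERT2 arrays, against 7.71, 7.25 and 7.37 on the ERT2 arrays. The CRE-ERT2 values lay inside the ERT2 range, and the interval of the difference was -0.23 to 0.23. Tnfrsf13b (TACI), another receptor for BAFF, differed by 0.13 (-0.03 to 0.28), and Tnfrsf17 (BCMA), best known from plasma cells, by -0.14 (-0.29 to 0.02). Neither passed (limma adjusted p = 0.435 and 0.373), although the groups did not overlap in either gene.

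Of 14 costimulatory members, which carry signals between lymphocytes and antigen-presenting cells, 3 rose and 11 did not pass. The background of higher calls was 2.3% of all genes. Tnfrsf18 (GITR), a receptor best known from regulatory T cells, read 10.62, 10.55 and 10.50 on the CRE-ERT2 arrays, against 9.59, 9.92 and 9.90 on the ERT2 arrays. The groups were far apart, and ERT2 replicate 1 was the lowest array. The gene was 1.68-fold higher (1.47 to 1.94, limma adjusted p = 0.000324) and passed in each of the 14 alternatives. Its ligand gene Tnfsf18 read 5.55, 5.71 and 5.59 on the CRE-ERT2 arrays, against 5.89, 5.60 and 5.61 on the ERT2 arrays, with overlapping ranges and a difference of -0.09 (-0.28 to 0.11).

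Tnfsf4 encodes the OX40 ligand, which antigen-presenting cells, B cells among them, show to T cells. It read 8.35, 8.26 and 8.19 on the CRE-ERT2 arrays, against 7.96, 7.83 and 7.63 on the ERT2 arrays. The ranges did not overlap, and the gene was 1.38-fold higher (1.20 to 1.57, limma adjusted p = 0.0096). Without CRE-ERT2 replicate 1 the limma adjusted p was 0.0543. The OX40 receptor gene Tnfrsf4 read 8.33, 8.25 and 8.34 on the CRE-ERT2 arrays, against 8.18, 8.35 and 8.43 on the ERT2 arrays, and the CRE-ERT2 values lay within the ERT2 range (difference -0.01, -0.19 to 0.16).

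Tnfsf8, the gene of the CD30 ligand, read 9.75, 9.44 and 9.65 on the CRE-ERT2 arrays, against 9.07, 9.30 and 8.84 on the ERT2 arrays. The gap between CRE-ERT2 replicate 2 and ERT2 replicate 2 was small beside the spread within each group. The gene was 1.46-fold higher (1.23 to 1.73, limma adjusted p = 0.0143), and its call was lost without CRE-ERT2 replicate 1 (0.0763), CRE-ERT2 replicate 3 (0.0946) or ERT2 replicate 1 (0.0831). The CD30 gene Tnfrsf8 read 7.52, 7.68 and 7.56 on the CRE-ERT2 arrays, against 7.53, 7.42 and 7.60 on the ERT2 arrays, with overlapping ranges.

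Cd27, a costimulatory receptor gene, read 7.10, 7.08 and 7.11 on the CRE-ERT2 arrays, against 6.87, 6.92 and 6.99 on the ERT2 arrays. The groups did not overlap, but the difference of 0.17 (0.02 to 0.32) did not pass (limma adjusted p = 0.244). Its ligand gene Cd70 differed by -0.03 (-0.21 to 0.15). Cd40, through which T cells help B cells, differed by 0.10 (-0.09 to 0.28) and its ligand gene Cd40lg by 0.08 (-0.12 to 0.28). The remaining costimulatory genes Tnfsf9 (-0.11), Tnfrsf9 (-0.02), Tnfsf15 (-0.03) and Tnfrsf25 (-0.06) had overlapping groups, with limma adjusted p of 0.67 or more.

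**Figure D3:**
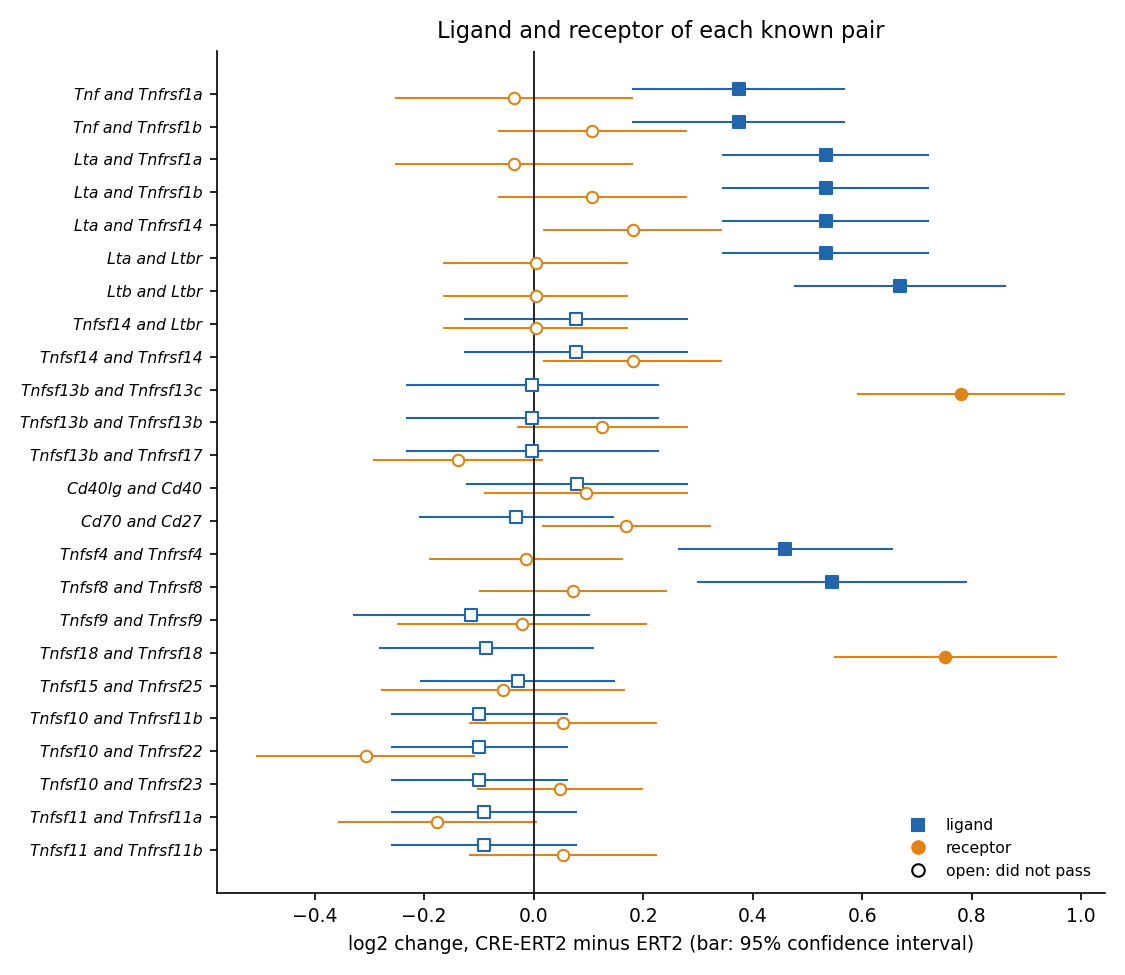
Log2 difference, CRE-ERT2 minus ERT2, of the ligand (blue square) and the receptor (orange circle) in each of 24 known pairs with both genes among the members. Bars are 95% confidence intervals, and filled symbols passed the test: 9 pairs have a filled ligand, 2 a filled receptor and 0 both.

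Set side by side as ligand and receptor, 32 of the 39 members form 24 known pairs, and the other 7 have no partner set among the members. In 9 pairs the ligand gene alone passed, in 2 the receptor gene alone, in 13 neither and in 0 both. The pairs share genes, so they are a description and not independent counts.

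Of 7 members known for cell death or bone turnover, 0 passed. With 4.58% of all genes called in either direction, 0 of 7 is no contrast with other genes. The role groups are small, and a difference between their counts was not tested. Fasl, the gene of the death ligand of T and NK cells, differed by -0.01 (-0.21 to 0.19), Tnfsf10 (TRAIL) by -0.10 (-0.26 to 0.06) and Tnfsf11 (RANKL), which drives osteoclast formation, by -0.09 (-0.26 to 0.08). The RANK gene Tnfrsf11a differed by -0.18 (-0.36 to 0.00), and Tnfrsf11b, which encodes the soluble decoy osteoprotegerin, by 0.05 (-0.12 to 0.22).

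Tnfrsf22, a mouse decoy receptor for TRAIL, had the lowest difference in the family. It read 9.82, 9.70 and 9.67 on the CRE-ERT2 arrays, against 9.86, 10.21 and 10.04 on the ERT2 arrays. The groups came close at CRE-ERT2 replicate 1 and ERT2 replicate 1 without overlapping. The difference of -0.31 (-0.50 to -0.11) did not pass (limma adjusted p = 0.0848), but it did in 4 of 14 alternatives, among them leaving out ERT2 replicate 1 (-0.39, limma adjusted p = 0.0436). The neighbouring mouse genes Tnfrsf23 (0.05), also a TRAIL decoy, and Tnfrsf26 (0.17) did not follow it. These 3 genes are close relatives, and whether a probe set reads more than its own gene was not tested.

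Of the 6 other receptors, 0 passed, which at the background of 4.58% is likewise no contrast with other genes. Tnfrsf26 read 10.74, 10.55 and 10.62 on the CRE-ERT2 arrays, against 10.41, 10.51 and 10.47 on the ERT2 arrays, which did not overlap (limma adjusted p = 0.283). Tnfrsf19 (TROY), known from the nervous system and hair follicles, read 9.74, 9.57 and 9.56 on the CRE-ERT2 arrays, against 9.89, 9.77 and 9.91 on the ERT2 arrays. Its difference of -0.23 (-0.40 to -0.06) did not pass (limma adjusted p = 0.134), and the groups did not overlap. Tnfrsf21 (death receptor 6) had a difference of -0.05, with groups that did not overlap and an SD of 0.02 in each. Ngfr (0.11), the low-affinity neurotrophin receptor, Tnfrsf12a (0.02), the TWEAK receptor, and Edar (-0.01), which takes part in hair and tooth formation, had overlapping groups.

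**Figure D4:**
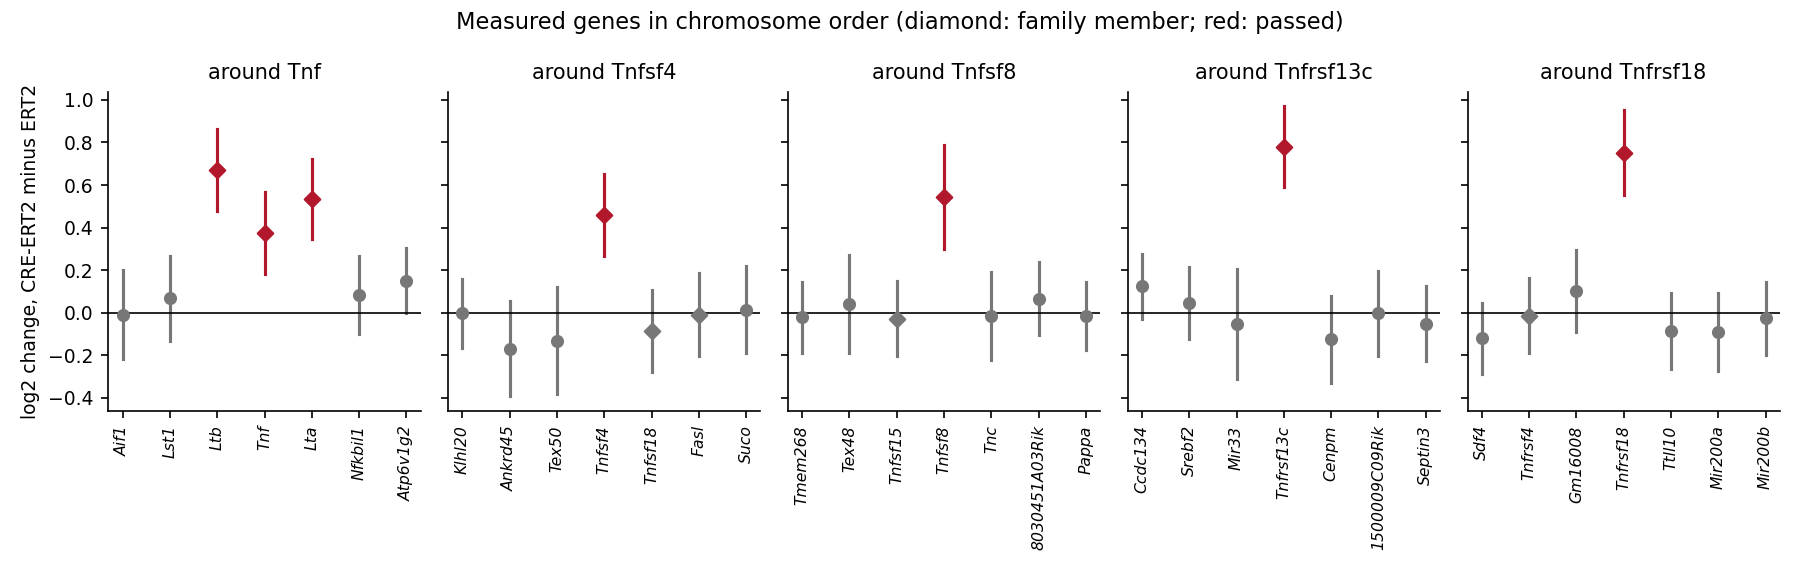
Log2 difference, CRE-ERT2 minus ERT2, with 95% confidence interval, for measured genes in the order of the chromosome around Tnf, Tnfsf4, Tnfsf8, Tnfrsf13c and Tnfrsf18 (diamonds are family members, red passed). Ltb, Tnf and Lta stand above 0 together, while the flanking genes lie between -0.17 and 0.15.

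The neighbours of the 7 genes on their chromosomes were looked up in the RefSeq gene order, with 3 measured genes taken on each side. Of 26 distinct neighbours outside the family, 0 were higher and 0 lower, against 4.58% of all genes called in either direction. At that share few calls fall among 26 genes, so the count of 0 says little by itself. The differences of these neighbours ran from -0.17 to 0.15. Nfkbil1 (0.08) and Lst1 (0.07), which border the Ltb, Tnf and Lta run, did not pass. Outside that run, the family genes within 3 places of a riser did not pass either. Tnfsf15 (-0.03) is next to Tnfsf8, and Tnfsf18 (-0.09) is next to Tnfsf4, with Fasl (-0.01) after it. Gm16008 lies between Tnfrsf4 (-0.01) and Tnfrsf18.

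Inside the cell, receptor signals pass through TRAF proteins, death-domain adaptors and the ubiquitin machinery. Of 39 such genes measured out of 42 listed, 1 was lower, 0 were higher and 38 did not pass, against the background of 2.28% lower. The gene was Mlkl, the pore-forming protein of necroptosis, which read 8.33, 8.23 and 8.32 on the CRE-ERT2 arrays, against 8.91, 8.78 and 8.54 on the ERT2 arrays. It had a difference of -0.45 (-0.65 to -0.25, limma adjusted p = 0.0135), and its call was lost without CRE-ERT2 replicate 3 (0.067) or ERT2 replicate 1 (0.0716). Casp8, the initiator caspase of death receptors, had the next smallest p, with a difference of 0.16 (limma adjusted p = 0.268). The median of the list was -0.06, against -0.03 over all genes.

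Of 16 NF-kB subunit, inhibitor and kinase genes measured out of 18, 0 passed with limma, against the background of 4.58%, and 1 had an unadjusted p under 0.05, against 16.4% of all genes. It was Nfkbiz, a nuclear NF-kB cofactor gene (0.22, limma adjusted p = 0.142), followed by the inhibitor gene Nfkbib (-0.15, 0.366). The median of this list was 0.01.

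Of 29 textbook TNF-responsive genes measured out of 30, 3 rose and 0 fell. The other 26 missed the threshold, and the median was 0.04. The share called higher was 10.3%, against the background of 2.3%. This list too was chosen with earlier results of these data known, so the contrast is a description only. The stress gene Gadd45b differed by 0.49 (0.32 to 0.67, limma adjusted p = 0.00326), the chemokine gene Ccl3 by 0.46 (0.22 to 0.69, 0.0304) and the transcription factor gene Irf1 by 0.36 (0.20 to 0.53, 0.0168). The calls of Ccl3 and Irf1 were lost without CRE-ERT2 replicate 1 (limma adjusted p = 0.0865 and 0.073), which left 1 gene of the list. Ccl3 lay below the level under which genes were left out as dim, so that setting did not test it. Its call was also lost with a further quantile normalization (0.0635), with all probe sets tested (0.232), and without CRE-ERT2 replicate 3 (0.0599), ERT2 replicate 1 (0.137) or ERT2 replicate 3 (0.0591). The call of Irf1 was also lost with the mean of its probe sets (0.0705) and with all probe sets tested (0.116), and that of Gadd45b with all probe sets tested (0.063).

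**Figure D5:**
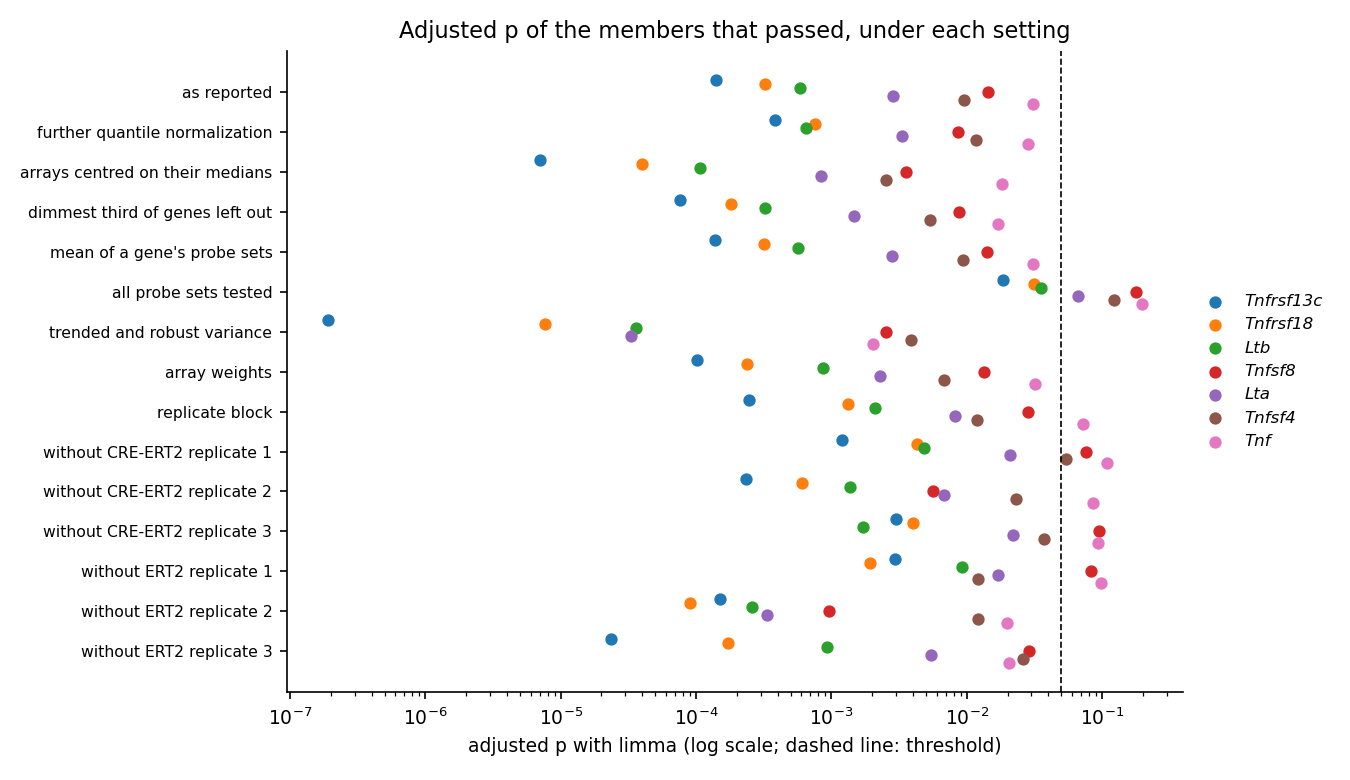
Adjusted p with limma, on a log axis, for the 7 members that passed, under the reported setting and 14 alternatives (a colour for each gene, dashed line at 0.05). Tnfrsf13c, Tnfrsf18 and Ltb stay left of the line in every row, while the other 4 cross it when all probe sets are tested. Of these 4, only Lta stays left of the line in all other rows. Tnfsf4 passed in 12 of the 14 alternatives, Tnfsf8 in 10 and Tnf in 8.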

How the data were processed

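The deposited table holds log2 expression values made by the authors, with 1 value for each of 35556 probe sets on 6 arrays. The submitters' processing notes name RMA and Partek 6.5 without saying what each did. The log2 scale was read from the values, and with no detection calls or scan dates used here, neither signal over background nor scan batches could be examined. Array medians were 7.90 to 7.98, no arrays were duplicates (correlations 0.991 to 0.996), and 3 arrays per group limit the precision.

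Probe sets annotated to exactly 1 gene (21789) were kept, and a gene was represented by its brightest on average. No member had more than 1. All 19938 genes were fitted with limma 3.58.1 (R 4.3.3), using lmFit and eBayes with group as the only term, two-sided tests, Benjamini-Hochberg adjustment over all genes and a threshold of 0.05. Which build the array was designed on is not stated in these sources. Promoter windows came from a RefSeq table of GRCm38.p6, searched with Python 3.11.15. On simulated data for the CRE-ERT2 against ERT2 comparison (19938 genes, 200 changed, 10 sets), the fit called 39.4% of genes changed by 0.3, 96.6% at 0.5 and 100% at 1, and 7.54% of calls were unchanged genes. The arrays themselves gave 914 calls, so these rates describe the simulated sets and not the error of the real comparison.

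Every member is named, in full where it passed, where its partner passed, or where its unadjusted p was under 0.05 and the groups did not overlap. Listed genes are named where they passed, or else by smallest p. The members and lists were chosen with earlier results of these data known. Alternatives were a further quantile normalization, centring, leaving out dim genes, the mean of probe sets, testing every probe set, a variance both trended and robust, weights per array, a replicate block and leaving out each array.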

Additional observations from a re-analysis of the deposited data

How the results depend on the processing

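All 7 members that passed kept a positive difference in each of the 14 alternatives, but in many of these the sign could not change. The replicate block, the variance setting and the choice of genes or probe sets tested left the difference of these members as it was. Where groups do not overlap, leaving out an array cannot reverse the difference. Tnfrsf13c, Tnfrsf18 and Ltb passed in all 14. Of the 32 other members, Tnfrsf22 passed in 4 and the rest in none. With all 35556 probe sets tested together, 3 members passed, Lta (limma adjusted p = 0.0662), Tnfsf4 (0.122), Tnfsf8 (0.179) and Tnf (0.198) did not, and 298 probe sets, 0 adaptor genes and 0 TNF-responsive genes were called. That setting adjusts over more tests and also estimates the variance anew from all probe sets. The share of each in the lost calls was not tested. With a trended and robust variance 1544 genes and 2 adaptor genes passed. Leaving out each array in turn gave 453 to 979 genes, 4 to 7 members, 0 to 1 adaptor genes and 1 to 3 TNF-responsive genes. These counts are of calls in either direction. The lowest counts of genes were 453 (CRE-ERT2 replicate 3 left out), 560 (ERT2 replicate 1) and 574 (CRE-ERT2 replicate 2). The share of higher calls over all genes was 50.2% as reported. It was 60.9% with a further quantile normalization and 56.7% with arrays centred on their medians, both with 7 members higher and 0 lower. It was 38% with the trended and robust variance, 42.9% without dim genes and 45.2% with array weights, each with 7 members higher and Tnfrsf22 lower. Ptpn6 did not pass in any alternative, nor did any NF-kB gene. The cause of these shifts was not tested.

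With the replicate number as a block, 589 genes and 6 members passed, and Tnf did not (limma adjusted p = 0.0716). Deviations of same-numbered arrays from their group means correlated at -0.11, -0.37 and -0.07 over genes, and no array correlated best with its own number. The best matches were CRE-ERT2 replicate 1 with ERT2 replicate 2 (0.45), 2 with 3 (0.40) and 3 with 1 (0.18). No label ties these arrays, so no fit was made on them. Of the 39 members, 10 lay below the level (7.37) under which genes were left out as dim, and all 10 were among the members that did not pass. Arrays understate differences near background, but whether these 10 lay near it was not tested. The level marks the dimmest 0.333 of all genes tested, and Ccl3, which lay below it, passed with a difference of 0.46.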

Other observations

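Some genes of the superfamily have symbols outside the naming rule. Eda2r, a receptor for an isoform of ectodysplasin, averaged 8.46 ± 0.09 on the CRE-ERT2 arrays and 7.93 ± 0.09 on the ERT2 arrays (SD, n = 3 each, limma fit), a difference of 0.52 (0.35 to 0.70, limma adjusted p = 0.00174). The groups were well apart. Its relative Edar differed by -0.01 and the ligand gene Eda by 0.04 (limma adjusted p = 0.896). Fas, the receptor of Fas ligand, read 6.76, 6.77 and 6.51 on the CRE-ERT2 arrays, against 6.35, 6.37 and 6.41 on the ERT2 arrays. Its groups did not overlap, and the difference of 0.30 (0.12 to 0.48) did not pass (limma adjusted p = 0.0602), but it did with arrays centred on their medians (0.0429) and without CRE-ERT2 replicate 3 (0.0348). Relt, a lymphoid receptor gene, differed by 0.25 (0.05 to 0.45, limma adjusted p = 0.181), with overlapping groups.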
